A study of Mus musculus with 4 samples.

Results

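The genes described here carry glucose into the cell and break it down: glucose transporters, the enzymes of glycolysis and of the switches around it, lactate dehydrogenases and lactate transporters, the kinases that close the entry of pyruvate into mitochondria, and the enzymes of the pentose phosphate pathway. They were taken by symbol from a list of 38 genes, all present in the table of 17691 genes. Of these, 37 reached 1 FPKM or more on average across the 4 libraries and were kept. FPKM is a fragment count divided by transcript length and by library total, so it can be compared between genes. Fbp1, the gluconeogenic fructose bisphosphatase, fell outside the limit with a mean of 0.617 FPKM, and the lowest member kept, Eno2, had a mean of 1.81 FPKM. The mice were C57BL/6, wild type and 6 to 8 weeks old, kept free of specific pathogens, and their lungs were taken after bleomycin or PBS had been given intranasally, with a treatment time of 10 days. Bleomycin is a DNA-breaking drug used to injure the lung, and PBS is the buffer control. There were 2 libraries per group, numbered 1 and 2, although the design text speaks of 3 replicates and the treatment protocol of 4 groups of mice. Whether each library is a separate animal is not said in the labels, so the p-values measure the spread between these libraries, which may be technical.

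Glycolysis splits glucose into pyruvate. In its first phase ATP is spent to prepare and cleave the sugar, and in its second phase, from Gapdh to pyruvate kinase, ATP and NADH are made. Pyruvate is then reduced to lactate by lactate dehydrogenase or enters mitochondria through pyruvate dehydrogenase, which the Pdk kinases switch off. The pentose phosphate pathway branches from glucose phosphate and yields NADPH and ribose phosphate. Proliferating cells, activated macrophages and myofibroblasts are known for high glycolytic activity, and many glycolytic genes are known targets of hypoxia-inducible factor and of Myc.

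The depth of the libraries, estimated from the step that a single fragment makes in low values, was between 17000000 and 17800000 fragments, and between 16458 and 16901 genes were above 0. Sex-linked transcripts separated the groups. The Y-linked gene Eif2s3y stood at 26.43 and 28.86 FPKM with PBS and was listed at 0 in both bleomycin libraries, and the X-linked gene Eif2s3x was higher with bleomycin (log2 fold change 0.76). Sex and treatment therefore cannot be told apart, which bears most directly on the X-linked members Pgk1, G6pdx and Pdk3. Of the 34 members on autosomes 8 rose and 4 fell. Of 380 X-linked genes tested, 9.21% rose and 7.37% fell. Markers of alveolar, airway and endothelial cells of the lung were detected, with Sftpc at 7913 to 12788 FPKM and Ager at 1883 to 2834 FPKM. Of macrophage markers 12 of 17 rose and 0 fell, of cycling cell markers 10 of 10 rose, and of fibroblast markers 7 of 11 rose and 1 fell. Of neutrophil markers 4 of 11 fell and 0 rose, of endothelial markers 6 of 11 fell and 0 rose, and of club and ciliated cell markers 4 of 10 fell and 0 rose. Scgb1a1, the main club cell product, took 8.35% to 11.2% of summed FPKM with PBS, against 3.98% to 4.28% with bleomycin. In bulk tissue a change in the number of cells of a type and a change in RNA per cell cannot be told apart, and the part of these shifts in the results below was not tested.

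Of the 37 members, 9 rose and 4 fell by limma at an adjusted p under 0.05, while the other 24 did not pass. Over all 12986 genes tested the same threshold called 16.3%, with 8.59% higher and 7.69% lower. The members' share of rises, 24.3%, stood above this background, and their share of falls, 10.8%, was nearer to it. The members were chosen with earlier results of these data known, so these shares are a description and not a test. The genes that rose were Slc2a1, Hk1, Aldoc, Gapdh, Pgk1, Pgam1, Eno1, Ldha and Pgd, and those that fell were Slc2a3, Pfkm, Ldhb and Pdk2. The members' median log2 fold change was 0.16 against -0.02 over all genes tested, with a range from -0.98 to 0.89. The groups did not overlap for 19 members that were higher and 6 that were lower with bleomycin. Over all genes the shares without overlap were 31.5% higher and 35% lower. When either PBS library was left out limma called 0 of all genes, and at an unadjusted p under 0.05 it then gave 10 members higher, with 3 lower without replicate 1 and 4 lower without replicate 2. Leaving out bleomycin replicate 1 gave 13 members higher and 8 lower, and leaving out replicate 2 of that group gave 17 higher and 5 lower. In each of these fits 1 group is a single library, which is assumed to vary like the other group's pair, the only source of the spread.

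**Figure D1:**
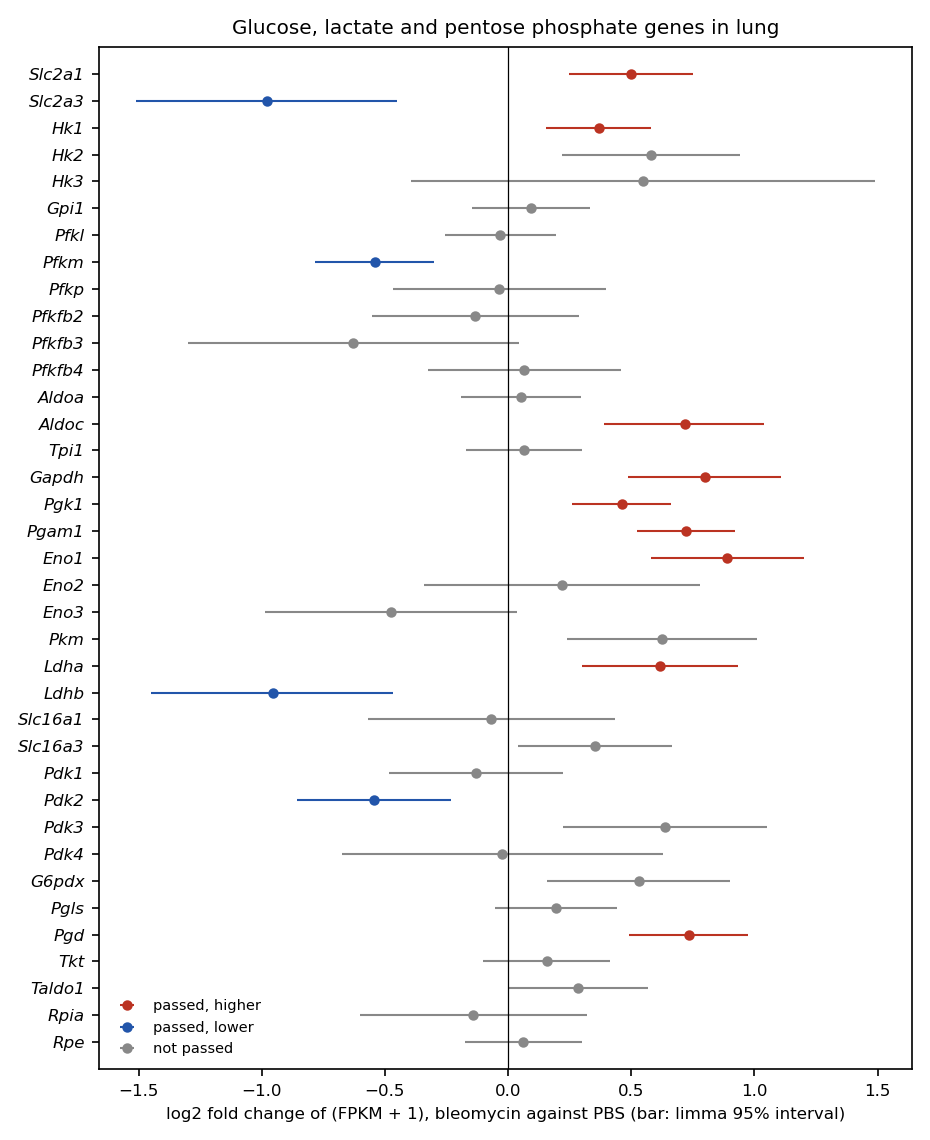
Log2 fold change of FPKM + 1, bleomycin against PBS, for the 37 members in pathway order from uptake to the pentose phosphate genes. Points are limma estimates with 95% intervals from 2 libraries per group, and colour gives the call. Eno1 (0.89) lies farthest to the right and Slc2a3 (-0.98) farthest to the left.

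Of the 7 genes of the second phase 4 rose and 0 fell, with a median log2 fold change of 0.62. The share of rises was 57.1%, beside 8.59% of all genes tested, but the phases were compared after the values were seen. Gapdh, which oxidises glyceraldehyde phosphate and makes NADH (gene 14433, GRCm38.p6 chromosome 6, 125161852 to 125166467), stood at 480.08 and 492.12 FPKM with PBS, against 803.15 and 891.24 FPKM with bleomycin. Both bleomycin libraries lay well above both PBS libraries, and the log2 fold change was 0.80 ± 0.12 (SE, adjusted p = 0.0201 by limma). Pgk1, which makes the first ATP of the pathway (gene 18655, chromosome X, 106187100 to 106203699), was at 76.54 and 75.38 FPKM with PBS, against 103.89 and 105.97 FPKM with bleomycin. Its replicates were close in both groups (log2 fold change 0.46 ± 0.08, adjusted p = 0.0246 by limma). Pgk1 is X-linked, and sex and treatment cannot be told apart in these libraries, as given above. Pgam1, the phosphoglycerate mutase (gene 18648, chromosome 19, 41911871 to 41918665), went from 63.69 and 63.77 FPKM to 104.71 and 106.94 FPKM. Its fold change of 1.66 had the smallest adjusted p of the members (log2 fold change 0.72 ± 0.08, adjusted p = 0.0105 by limma). Eno1, the widespread enolase (gene 13806, chromosome 4, 150236708 to 150248879), went from 105.02 and 102.15 FPKM to 175.51 and 211.27 FPKM. With a log2 fold change of 0.89 ± 0.12 it had the highest estimate among the members on the log2(FPKM + 1) scale (adjusted p = 0.0162 by limma). With a pseudocount of 0.1 Aldoc, a low gene, stood higher at 0.93 against 0.89 for Eno1.

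Pyruvate kinase did not pass. Pkm was at 195.43 and 213.84 FPKM with PBS, against 280.2 and 355.64 FPKM with bleomycin, without overlap (log2 fold change 0.62 ± 0.15, adjusted p = 0.0534 by limma). The bleomycin libraries differed more for Pkm than for Pgam1, and of the 4 other scalings Pkm passed under 1, rescaling each library to the same sum (adjusted p = 0.0446), and not under the other 3 (0.0629 to 0.068). The other enolases were far lower and behaved otherwise. Eno3, the muscle enolase, was at 8.11 and 10.78 FPKM with PBS, against 7.53 and 5.51 FPKM with bleomycin, and did not pass (adjusted p = 0.162). Eno2, the neuronal enolase, ranged from 1.49 to 2.61 FPKM with overlapping groups, which is between 66 and 116 estimated fragments per library. Eno1 made up 91.6% and 89.2% of enolase FPKM with PBS, against 94.5% and 96.8% with bleomycin. Several of these enzymes have near-identical processed copies in the genome, and how the authors' counting shared fragments among copies is not given in the sources used here. Eno1b, a close copy of Eno1, was listed at 0 in 3 libraries and at 0.11 FPKM in bleomycin replicate 1.

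The enzymes of the first phase, from hexokinase to Tpi1, held 2 rises and 1 fall among 10 genes. These shares were 20% and 10%, beside 8.59% and 7.69% of all genes tested. The rises were Hk1 and Aldoc, and the fall was Pfkm. Hk1, the main hexokinase of this lung tissue, was at 22.29 and 20.92 FPKM with PBS, against 28.65 and 27.68 FPKM with bleomycin (log2 fold change 0.37 ± 0.08, adjusted p = 0.0469 by limma). This call was close to the threshold and was lost when the variance trend was left out (adjusted p = 0.0671) and when low genes were kept (0.0572). Hk2, the inducible hexokinase, was at 3.23 and 2.91 FPKM with PBS, against 5.66 and 4.55 FPKM with bleomycin, without overlap. It narrowly missed the threshold (log2 fold change 0.58 ± 0.14, adjusted p = 0.0547 by limma) and passed under all 4 other scalings, at an adjusted p between 0.0284 and 0.0404. Hk3, the hexokinase of myeloid cells, was at 2.02 and 1.97 FPKM with PBS, 5.31 FPKM in bleomycin replicate 1 and 2.04 FPKM in bleomycin replicate 2. The high value stood in a single library. Summed macrophage markers were higher in that library, at 6099 against 2281 FPKM in replicate 2, mostly from Lyz2, a myeloid lysozyme (4992 against 1608 FPKM). Summed alveolar macrophage markers were lower in it, at 599.5 against 1287 FPKM. The part of myeloid cells in the Hk3 values was not tested.

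Gpi1, Pfkl, Pfkp, Aldoa and Tpi1 did not pass, and their intervals limit what could have been missed. Aldoa, the aldolase of most tissues and the most abundant member of this phase, was at 330.54 and 337.72 FPKM with PBS, against 346.41 and 347.26 FPKM with bleomycin (log2 fold change 0.05, 95% interval -0.19 to 0.30). For Gpi1 the interval ran from -0.15 to 0.33, for Tpi1 from -0.17 to 0.30 and for Pfkl from -0.26 to 0.19. For Pfkp it was wider, from -0.47 to 0.40, with 18.57 and 13.33 FPKM in the bleomycin libraries. A change as large as that of Hk1 (0.37) could therefore have been missed for Pfkp. The estimates for Pfkl and Pfkp were below 0 by at most 0.04 and turned to 0.03 after rescaling each library to the same sum. Aldoc, known from brain, rose from 1.95 and 2.3 FPKM to 3.98 and 4.28 FPKM (log2 fold change 0.72 ± 0.125, adjusted p = 0.0272 by limma). It remained a minor aldolase, with 0.586% and 0.676% of aldolase FPKM with PBS, against 1.14% and 1.22% with bleomycin. Pfkm, the muscle form of phosphofructokinase (gene 18642, chromosome 15, 98092589 to 98132447), fell from 11.35 and 10.84 FPKM to 7.55 and 7.08 FPKM (log2 fold change -0.54 ± 0.09, adjusted p = 0.0261 by limma). Of 9 tested markers of heart and skeletal muscle 1 fell and 0 rose, and their summed FPKM was 50.83 to 59.23 with PBS, against 40.34 to 45.34 with bleomycin. The part of muscle RNA in the fall of Pfkm was not tested.

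The kinases and phosphatases of the Pfkfb family set the level of the fructose bisphosphate that activates phosphofructokinase. None of the 3 passed. Pfkfb3, the form with the strongest kinase activity, was the most abundant, with 37.04 and 36.41 FPKM with PBS, 30.77 FPKM in bleomycin replicate 1 and 17.77 FPKM in bleomycin replicate 2. Both bleomycin values were lower, by unequal amounts (log2 fold change -0.63 ± 0.26, adjusted p = 0.16 by limma). Pfkfb2 ranged from 10.64 to 14.52 FPKM and Pfkfb4 from 11.35 to 15.04 FPKM, each with bleomycin replicates at both ends of the range. At the level of whole steps, phosphofructokinase was the step whose summed FPKM was lower in both bleomycin libraries, at 46.41 and 39.12 against 47.06 and 47.34 with PBS.

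Set out by step, the ratio of the bleomycin mean to the PBS mean of summed FPKM was 1.74 at Gapdh, 1.38 at phosphoglycerate kinase, 1.66 at phosphoglycerate mutase, 1.76 at enolase and 1.55 at pyruvate kinase. In the first phase it was 1.39 at hexokinase, 1.07 at Gpi1, 0.906 at phosphofructokinase, 1.04 at aldolase and 1.05 at Tpi1. The summed FPKM of the second phase divided by that of the first phase was 1.58 and 1.59 with PBS, against 2.34 and 2.69 with bleomycin. Without Gapdh these ratios were 0.767 and 0.774 with PBS, against 1.07 and 1.26 with bleomycin. The groups were fully apart for both ratios, and the exact permutation test, two-sided, gave p = 0.333 for each, the smallest value that 2 against 2 libraries allow. The split into phases is the textbook one, but it was compared after the values were seen. Together the 17 enzyme genes of glycolysis took 0.311% and 0.317% of summed FPKM with PBS, against 0.445% and 0.499% with bleomycin, a ratio of means of 1.5, or 1.35 for the 16 genes without Gapdh (exact permutation p = 0.333 for each).

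**Figure D2:**
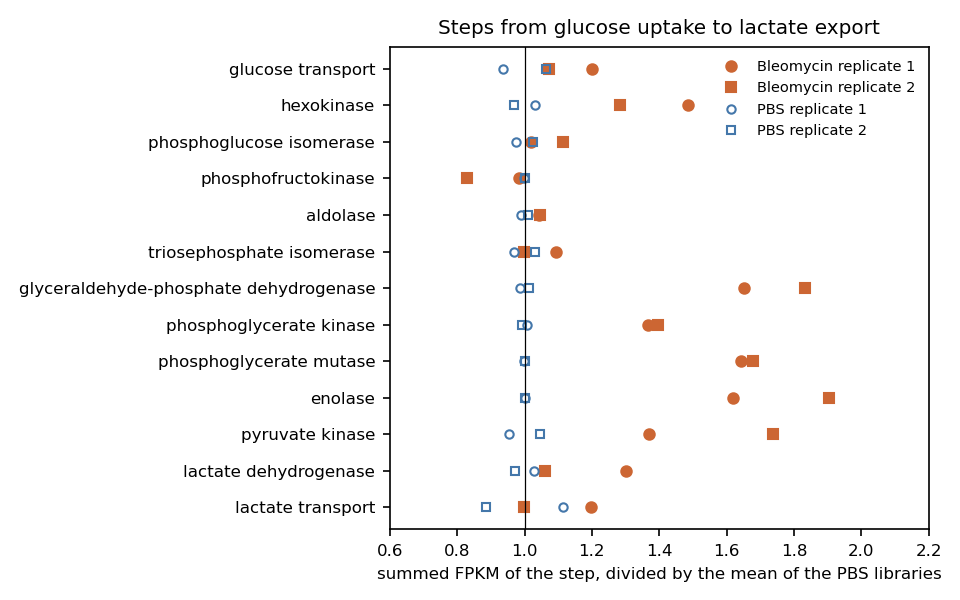
Summed FPKM of each step from glucose transport to lactate transport, divided by the mean of the PBS libraries, for each of the 4 libraries (circles for replicate 1, squares for replicate 2). From Gapdh to pyruvate kinase the ratios of group means run from 1.38 to 1.76, and from phosphoglucose isomerase to triosephosphate isomerase from 0.906 to 1.07.

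Gapdh and Pgk1 are both widely used as reference genes for normalising expression. Of 18 such genes 4 rose, Gapdh, Pgk1, Gusb and Tubb5, and 0 fell. Gusb, a lysosomal glucuronidase, went from 25.31 and 25.68 FPKM to 53.3 and 40.83 FPKM (log2 fold change 0.85), and Tubb5, a tubulin, had a log2 fold change of 0.65. Actb was at 935 and 1025 FPKM with PBS, against 1451 and 1494 FPKM with bleomycin (log2 fold change 0.59 ± 0.14, adjusted p = 0.0527 by limma). Hprt, Ywhaz, Rplp0 and Polr2a had log2 fold changes of 0.25, 0.21, 0.31 and 0.12, and none of these passed. Eef1a1, Ppia, Rpl13a and Tfrc had log2 fold changes of at most 0.03, while Tbp, Sdha and B2m were at -0.15, -0.28 and -0.57 without passing. The ratio of Gapdh to Actb was 0.514 and 0.48 with PBS, against 0.553 and 0.596 with bleomycin.

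Of the lactate dehydrogenases Ldha rose and Ldhb fell. Ldha, whose subunit is known for turning pyruvate into lactate (gene 16828, chromosome 7, 46842274 to 46855627), stood at 146.87 and 152.49 FPKM with PBS, against 252.78 and 209.53 FPKM with bleomycin. It rose by 0.62 ± 0.12 on the log2 scale (adjusted p = 0.0355 by limma). Ldhb, whose subunit is favoured in tissues that oxidise lactate (gene 16832, chromosome 6, 142490249 to 142507957), stood at 90.54 and 71.55 FPKM with PBS, against 47.52 and 35.39 FPKM with bleomycin. It fell by 0.96 on the log2 scale (SE 0.19, adjusted p = 0.0354 by limma). The ratio of Ldha to Ldhb within a library was 1.62 and 2.13 with PBS, against 5.32 and 5.92 with bleomycin, and Ldha made up 61.9% and 68.1% of lactate dehydrogenase FPKM with PBS, against 84.2% and 85.6% with bleomycin. Both calls were lost when low genes were kept in the test (adjusted p = 0.0628 for Ldha and 0.0704 for Ldhb). The sum of the pair went from 237.4 and 224 FPKM to 300.3 and 244.9 FPKM.

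The stretches upstream of the genes are shown for the lactate dehydrogenase pair and for 3 glycolytic genes that rose, because many glycolytic genes are known to be read from a short hypoxia response core. The core was searched as ACGTG and GCGTG on both strands, with overlapping matches counted, so that a single CACGTG, which is also an E-box as bound by Myc, counts as 2 matches. Each stretch is the 250 bases before a RefSeq transcription start (GRCm38.p6), 5′ to 3′ on the gene's strand, with matches in capitals. The Ldha start lies inside the span given above for the gene, which holds other starts. The positions are chr7:46845554-46845803 on the plus strand for Ldha, chr6:142507958-142508207 on the minus strand for Ldhb, chr19:41911621-41911870 on the plus strand for Pgam1, chr4:150236458-150236707 on the plus strand for Eno1 and chrX:106186850-106187099 on the plus strand for Pgk1.
Ldha: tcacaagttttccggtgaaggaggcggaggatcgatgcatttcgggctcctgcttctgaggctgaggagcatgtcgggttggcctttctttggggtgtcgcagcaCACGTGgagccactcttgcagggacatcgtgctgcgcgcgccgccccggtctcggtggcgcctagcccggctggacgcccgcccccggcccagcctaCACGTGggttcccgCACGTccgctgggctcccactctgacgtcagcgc
Ldhb: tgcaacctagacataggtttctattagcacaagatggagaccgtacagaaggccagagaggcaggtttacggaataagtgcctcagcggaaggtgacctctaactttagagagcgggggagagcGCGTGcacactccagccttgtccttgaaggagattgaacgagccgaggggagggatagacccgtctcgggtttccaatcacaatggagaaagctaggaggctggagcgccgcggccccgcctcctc
Pgam1: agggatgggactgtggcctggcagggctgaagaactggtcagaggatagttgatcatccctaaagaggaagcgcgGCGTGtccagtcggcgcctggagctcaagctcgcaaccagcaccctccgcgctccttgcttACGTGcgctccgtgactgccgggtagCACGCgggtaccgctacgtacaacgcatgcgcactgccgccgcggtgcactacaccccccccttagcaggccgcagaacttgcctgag
Eno1: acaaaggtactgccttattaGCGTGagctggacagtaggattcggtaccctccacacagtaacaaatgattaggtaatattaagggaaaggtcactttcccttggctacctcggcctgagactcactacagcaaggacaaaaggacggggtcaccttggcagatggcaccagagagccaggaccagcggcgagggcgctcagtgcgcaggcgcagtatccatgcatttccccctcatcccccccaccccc
Pgk1: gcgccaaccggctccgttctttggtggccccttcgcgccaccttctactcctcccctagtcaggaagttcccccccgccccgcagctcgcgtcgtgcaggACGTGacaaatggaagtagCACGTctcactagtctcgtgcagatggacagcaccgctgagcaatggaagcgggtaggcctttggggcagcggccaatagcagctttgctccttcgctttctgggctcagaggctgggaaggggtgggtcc

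For each gene the stretch shown was the one with the most matches among starts whose 250 upstream bases held no annotated exon. Ldha held 5 matches, 4 of them from 2 copies of CACGTG, and Ldhb, with a single start, held 1. The other such stretch of Ldha held 1 match and no CACGTG, so the difference within the pair depends on the start chosen. Pgam1 held 3, Pgk1 held 2 and Eno1 held 1. Over RefSeq windows of 300 bases, from 250 before to 50 after a start, the core was present in 43.8% of all 32851 windows and in 60.4% of those of tested genes. Of the kept members 36 had such a window, 53 windows in all. The core was present in 13 of 15 windows of genes that rose, 5 of 7 of genes that fell and 24 of 31 of genes that did not pass. By gene it was present in 9 of 9, 3 of 3 and 20 of 24 in the same order. Windows of the same gene can overlap, and a link between the core and the rises was not tested. CACGTG was present in 7.15% of all windows and in 1 of 15, 2 of 7 and 3 of 31 windows in the same order. A match is a string of letters and not a measured binding site.

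Among genes of the hypoxia-inducible factors and their targets outside glycolysis, 4 rose and 2 fell of 23 tested, with a median log2 fold change of -0.07. Hif1a rose from 15.52 and 15.15 FPKM to 30.17 and 24.39 FPKM (log2 fold change 0.78), while Epas1, which encodes the related subunit abundant in endothelium, fell from 628 and 660 FPKM to 321 and 396 FPKM (log2 fold change -0.85). Endothelial markers fell in the same libraries, as given above, and their part in the fall of Epas1 was not tested. Of the targets, Ankrd37 rose from 4.52 FPKM in both PBS libraries to 12.42 and 28.32 FPKM (log2 fold change 1.84), and Bhlhe40 (0.79) and Ndrg1 (0.70) rose, while Bnip3, a mitophagy gene, fell (-0.70). The other 17 genes did not pass. Regulators of glycolytic genes held 4 rises and 2 falls among 22 tested. Myc rose from 4.02 and 4.19 FPKM to 10.85 and 12.18 FPKM (log2 fold change 1.29), Stat3 (0.59), Trp53 (0.52) and Ppard (0.40) rose, and Mlxip (-0.61), a glucose-sensing factor, and Nr3c1 (-0.54), the glucocorticoid receptor, fell. Mlxip is known to drive Txnip, which restrains glucose uptake. Txnip fell from 416.44 and 423.2 FPKM to 178.5 and 146.48 FPKM (log2 fold change -1.37 ± 0.13, adjusted p = 0.00895 by limma), the largest change among the pathway genes outside the member list.

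Of the glucose transporters Slc2a1 rose and Slc2a3 fell. Slc2a1, the basal glucose transporter (gene 20525, chromosome 4, 119108745 to 119137330), was at 10.79 and 12 FPKM with PBS, against 17.05 and 15.97 FPKM with bleomycin. Both bleomycin libraries were higher (log2 fold change 0.50 ± 0.10, adjusted p = 0.0343 by limma). Slc2a3, a high-affinity transporter of neurons and leukocytes (gene 20527, chromosome 6, 122727809 to 122802363), was at 4.47 and 5.35 FPKM with PBS, against 2.53 and 1.53 FPKM with bleomycin, or between 108 and 362 estimated fragments per library. It fell by 0.98 on the log2 scale (SE 0.20, adjusted p = 0.0392 by limma). Slc2a1 made up 70.7% and 69.2% of the pair's FPKM with PBS, against 87.1% and 91.3% with bleomycin, and the pair's sum was 15.26 and 17.35 FPKM with PBS, against 19.58 and 17.5 FPKM with bleomycin. The summed FPKM of neutrophil markers was lower in the same libraries, at 478.7 and 600.1 with PBS, against 224.8 and 167.2 with bleomycin. Of 11 tested 4 fell, among them S100a8 (log2 fold change -1.36), S100a9 (-1.56) and Retnlg (-1.42). The other 7 did not pass, and 1 of the 11 had a positive log2 fold change (0.42). The part of neutrophil RNA in the fall of Slc2a3 was not tested. Both transporter calls were lost when low genes were kept in the test (adjusted p = 0.0565 for Slc2a1 and 0.0768 for Slc2a3).

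**Figure D3:**
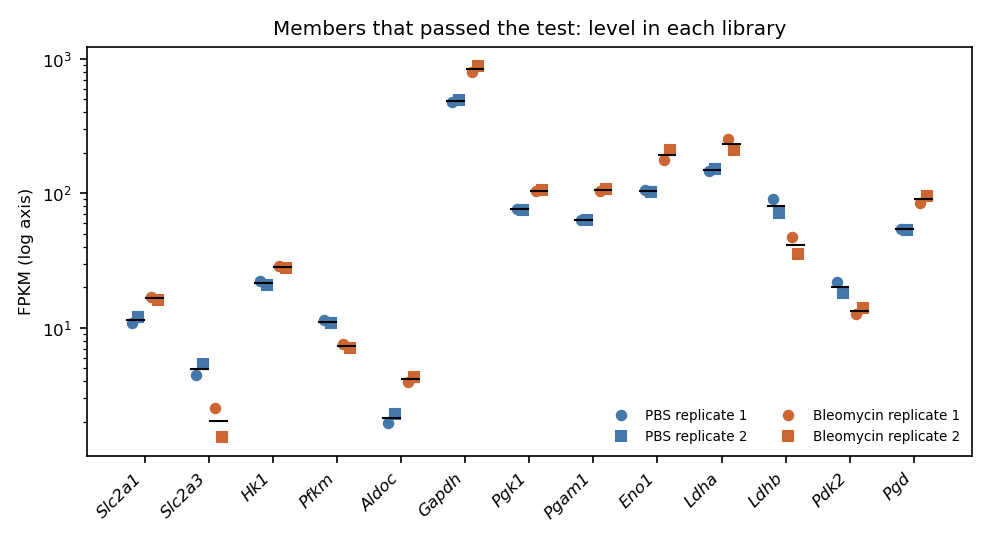
FPKM (log axis) in each library for the 13 members that passed, with PBS in blue, bleomycin in orange, circles for replicate 1, squares for replicate 2 and bars at group means. The groups do not overlap for any of the 13, and levels run from 1.53 FPKM (Slc2a3) to 891 FPKM (Gapdh).

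Of the proton-linked lactate transporters, neither passed. Slc16a1, which can carry lactate in and out, was at 10.52 and 7.29 FPKM with PBS, against 9.1 and 7.61 FPKM with bleomycin, with overlap. Slc16a3, known for lactate export from glycolytic cells, was at 6.24 and 6.06 FPKM with PBS, against 8.93 and 7.41 FPKM with bleomycin, without overlap (log2 fold change 0.35 ± 0.12, adjusted p = 0.112 by limma). Of the other monocarboxylate genes Slc16a6 rose (0.63) and Slc16a7, a high-affinity pyruvate carrier, fell (-0.67), with 3 of 5 not passing.

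Of the 4 pyruvate dehydrogenase kinases 1 fell and 3 did not pass. Pdk2, the most abundant with PBS (gene 18604, chromosome 11, 95026258 to 95041371), fell from 21.79 and 18.26 FPKM to 12.73 and 14.05 FPKM (log2 fold change -0.54 ± 0.12, adjusted p = 0.0452 by limma). The call was lost under all 4 other scalings, with an adjusted p of at most 0.0749 over the alternatives that keep all libraries. Pdk3 was at 11.59 and 12.55 FPKM with PBS, against 16.62 and 22.39 FPKM with bleomycin, without overlap and without passing (log2 fold change 0.64 ± 0.16, adjusted p = 0.0587 by limma), and it is X-linked. Pdk2 made up 52% and 44.5% of kinase FPKM with PBS, against 31.8% and 32.1% with bleomycin, and Pdk3 27.6% and 30.6% against 41.6% and 51.1%. The sum of the 4 kinases was 41.93 and 41.05 FPKM with PBS, against 39.97 and 43.8 FPKM with bleomycin. Pdk1, a hypoxia-inducible member, ranged from 3.56 to 4.65 FPKM, and Pdk4, the form induced by fasting, was at 4.8 and 5.59 FPKM with PBS, against 6.71 and 3.8 FPKM with bleomycin. Both had overlapping groups. Of the 10 genes of pyruvate dehydrogenase, its phosphatases and the pyruvate carrier 0 passed by limma, with log2 fold changes from -0.42 to 0.21. The groups did not overlap for 5 of the 10, beside 66.5% of all genes tested. Mpc1, a subunit of the pyruvate carrier, was at 64.11 and 76.61 FPKM with PBS, against 66.86 and 74.26 FPKM with bleomycin, and Pdha1, the subunit that the kinases phosphorylate, was at 53.29 and 52.98 FPKM with PBS, against 49.29 and 52.61 FPKM with bleomycin.

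**Figure D4:**
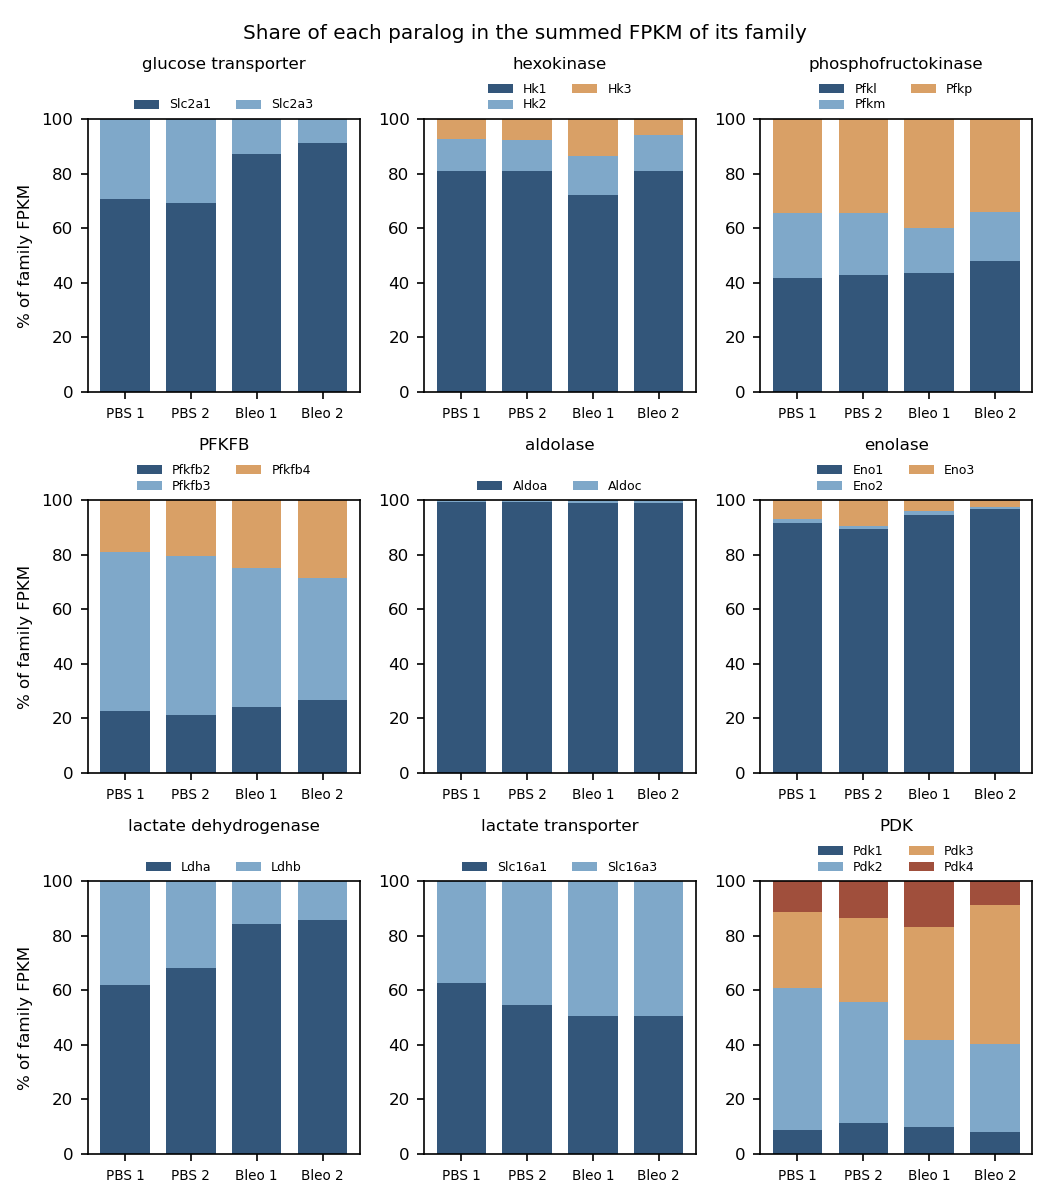
Share of each paralog in the summed FPKM of its family, in percent, for each of the 4 libraries and 9 families. With bleomycin the shares of Slc2a1, Ldha and Pdk3 are larger in both libraries (87.1% and 91.3%, 84.2% and 85.6%, 41.6% and 51.1%), while Aldoa keeps over 98% of aldolase in every library.

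In the pentose phosphate pathway Pgd, the phosphogluconate dehydrogenase of the NADPH-producing arm (gene 110208, chromosome 4, 149149991 to 149166705), rose from 54.68 and 53.24 FPKM to 85.33 and 95.79 FPKM (log2 fold change 0.73 ± 0.09, adjusted p = 0.0144 by limma). G6pdx, the enzyme that commits glucose phosphate to the pathway, was at 21.7 and 22.41 FPKM with PBS, against 28.28 and 36.86 FPKM with bleomycin. Its groups did not overlap, but it did not pass (log2 fold change 0.53 ± 0.14, adjusted p = 0.0697 by limma), and it is X-linked. Pgls, the lactonase between them, was at 34.91 and 39.88 FPKM with PBS, against 42.62 and 43.06 FPKM with bleomycin (adjusted p = 0.22). In the arm that makes ribose phosphate and returns carbon to glycolysis 0 of 4 genes passed. Taldo1 was at 91.66 and 103.63 FPKM with PBS, against 125.59 and 112.47 FPKM with bleomycin (log2 fold change 0.28, 95% interval 0.00 to 0.57), and Tkt had a log2 fold change of 0.16 (interval -0.10 to 0.42). Rpia and Rpe overlapped between groups, with Rpe between 11.64 and 12.79 FPKM. The 7 genes together took 0.0546% and 0.0581% of summed FPKM with PBS, against 0.075% and 0.0766% with bleomycin. Of 14 further genes listed for this pathway and for NADPH supply 2 rose and 0 fell. They were Me1, the cytosolic malic enzyme (0.70), and Pgm2, of the phosphoglucomutase family (0.60).

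Over 77 tested genes of the same pathways outside the member list, 7 rose, 7 fell and 63 did not pass, 9.09% in each direction beside backgrounds of 8.59% and 7.69%, with a median log2 fold change of 0.00. Besides those named, Slc5a1, a sodium-glucose transporter, rose from 0.73 and 0.93 FPKM to 2.78 and 1.99 FPKM (log2 fold change 0.88), and Pcx, the pyruvate carboxylase, rose (0.42). Among genes listed for glycogen and polyols Gyg, the glycogenin that primes glycogen (0.76), and Pgm1 (0.42) rose. Gbe1, the branching enzyme (-0.55), and Pgm2l1 (-0.68) fell. Khk, the fructokinase, fell from 12.93 and 14.51 FPKM to 5.91 and 7.48 FPKM (log2 fold change -0.94), and Sord, the sorbitol dehydrogenase, from 33.03 and 35.01 FPKM to 17.42 and 13.19 FPKM (-1.11). Fbp1, below the limit for testing, was at 1 and 1.02 FPKM with PBS, against 0.19 and 0.26 FPKM with bleomycin, or 25 and 26 against 5 and 7 estimated fragments. Hepatocyte markers fell in the same libraries, 9 of 9, with Alb at 14.43 and 14.23 FPKM with PBS, against 1.01 and 0.66 FPKM with bleomycin. The part of liver RNA in the falls of Khk and Sord and in the lower values of Fbp1 was not tested.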

How the data were processed

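RNA from 2 PBS and 2 bleomycin lung libraries was analysed from a single deposited table of FPKM values per gene, which the authors normalized for length and library total. The submitters' processing notes name Bowtie2, HISAT, mm10 and GRCm38 without roles or versions, and strand handling is not given in the sources used here. Of 17692 rows 1 had no gene name and was left out (at most 0.0009% of a library's sum), 27 symbols that a spreadsheet had turned into dates were restored, and 16961 symbols were matched to RefSeq GRCm38.p6. The members and lists were chosen with earlier results of these data known. The 12986 genes that averaged 1 FPKM or more were tested with limma 3.58.1 in R 4.3.3 on log2(FPKM + 1), with a variance trend, two-sided, with Benjamini-Hochberg adjustment over all of them, and a gene was called at an adjusted p under 0.05. Fold changes on this scale understate those of low genes. Two-sided exact permutation tests used scipy 1.17.1. In simulated data for the 12986 genes, 90% of 100 genes changed 2-fold and all of 100 changed 4-fold were called, with 18 false calls among 208. The simulated noise was normal, with the same variance in both groups. The real pairs differed in spread (2.81 times sampling noise for PBS and 8.8 times for bleomycin), so these rates need not hold here. Depth was estimated from steps in low values, of which 75% to 78.1% lay within 0.15 of a whole fragment (30% by chance), and was chosen as the best step on the same values, so no count test was run. The replicate pairs correlated at 0.9949 (PBS) and 0.9774 (bleomycin) over log2 values and differed by more than sampling noise. Every member was named, with up to 6 called genes of each further pathway list (or up to 2 of the highest mean where fewer than 2 were called), the tested reference genes and up to 3 genes of a marker list; a few genes that this rule names are not reported here. Alternatives changed the pseudocount, filter, scaling, variance trend and block, left out each library, and, added after seeing the data, left out X- and Y-linked genes.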

Additional observations from a re-analysis of the deposited data

How the results depend on the processing

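A fit without 1 library takes its spread from the other group's pair alone, and the pairs differed, with a median squared difference of 2.81 times sampling noise for PBS and 8.8 times for bleomycin. Leaving out each library in turn gave 0 to 17 members higher and 0 to 8 lower, 0 to 16 and 0 to 20 other pathway genes, and 0 to 2402 and 0 to 3144 of all genes, with 0 by limma without either PBS library (at an unadjusted p under 0.05, 1120 higher and 1007 lower of all genes when PBS replicate 1 was left out, and 1143 and 1059 for PBS replicate 2). The ratio of the glycolysis share stayed between 1.42 and 1.59. With no filter 5 members were higher, 2 were lower and 3 other pathway genes were higher. With a minimum of 5 FPKM 4 other pathway genes were lower, and with quantile normalization 11. The replicate numbers did not pair the samples by any label, and deviations of the pairs correlated at 0.0231. With the replicate block 6 members were higher and 2 lower, and 4 other pathway genes were higher and 5 lower. Under it Hk1 (adjusted p = 0.082), Pdk2 (0.0749), Slc2a1 (0.0642), Slc2a3 (0.0595), Ldha (0.0587) and Pgk1 (0.0579) did not pass. With no filter Aldoc (0.0516) and Pdk2 (0.0747) were lost along with the calls named in the report for that setting. Eno1, Gapdh, Pgam1, Pgd and Pfkm passed under all 12 alternatives that keep every library, and Pdk2 under 5 of 12. Estimates that changed sign had not passed. After rescaling to a common sum Pfkl, Pfkp and Pdk4 were each at 0.03. Leaving out a library gave -0.30 to 0.17 for Slc16a1 (0.05 without bleomycin replicate 2), -0.37 to 0.32 for Pdk4 (0.07 without PBS replicate 2), -0.12 to 0.25 for Pfkfb4, -0.05 to 0.49 for Eno2, -0.34 to 0.07 for Pfkfb2, -0.09 to 0.02 for Pfkl, -0.37 to 0.09 for Rpia and -0.26 to 0.19 for Pfkp. Of 435 member values under the other alternatives 407 kept their direction and side of the threshold. The estimated depth limits the low members most: Eno2 rests on 66 to 116 fragments per library.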
